A study of Mus musculus with 10 samples.

Results

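Oxidative phosphorylation subunit genes were taken as the nuclear genes whose single annotated symbol begins with Nduf followed by a, b, c, s or v and a number, with Sdha to Sdhd, with Uqcr, with Cox4 to Cox8 or with Atp5. By this rule on names 81 of the 18193 genes with a probe set of their own were members, 35 of complex I, 4 of complex II, 8 of complex III, 17 of complex IV and 17 of complex V. Each gene was read from the probe set with its highest mean log2 value. A filter on low signal, applied to all genes, left 78 members among 10916 genes tested. The other 3 members were not tested and lay near background, with signals of 35.2 to 61.4 for Cox4i2, a lung form of a complex IV subunit, 6.1 to 29.3 for Cox8b, a heart and muscle form, and 17.3 to 40.1 for Ndufb4. For Ndufb4, an accessory subunit of complex I, brighter probe sets carried the names of several genes and were left out.

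The samples were testes of mouse embryos (Mus musculus) of 5 ages in embryonic days. E11.5 and E12.5 fall around sex determination, E14.5 follows the forming of testis cords, and E16.5 and E18.5 lie late in gestation. Each age had 2 arrays from independent preparations, 10 arrays in all. Total RNA was extracted with Trizol, labelled with biotin and hybridised to Affymetrix Mouse430_2 arrays, and no group carried a mutation or treatment that the labels name. The sources used here do not give strain, the number of embryos in a preparation or whether the adjoining mesonephros was removed. Values are probe set signals in arbitrary units, scaled by the authors so that each array has the same trimmed mean.

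Oxidative phosphorylation is the last stage of respiration in mitochondria. Complexes I and II pass electrons from NADH and succinate to coenzyme Q, complex III passes them on to cytochrome c, and complex IV hands them to oxygen. The proton gradient that complexes I, III and IV build up drives complex V, the ATP synthase. Most subunits are encoded in the nucleus and a few in mitochondrial DNA, and several complex IV subunits exist in a general form and in forms typical of muscle, lung or testis. In the testis, Leydig cells use mitochondria for the first step of steroid synthesis, and germ cells express subunit forms of their own.

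Most of these genes gave lower signals at E16.5 and E18.5 than at E11.5 and E12.5. With those 4 late arrays set against the 4 early arrays, 42 of 78 members fell (53.8%), 4 rose and 32 did not pass the test (limma, adjusted p under 0.05 over all genes). Across all genes tested, 18.2% fell and 25.2% rose in this comparison. The median log2 change of the members was -0.39 (0.765-fold), and 69 of 78 estimates lay below 0, against a median of 0.04 for all genes. In 30 of 78 members all 4 late arrays lay below all 4 early arrays, which 16.4% of all genes did, and in 2 members all 4 late arrays lay above, which 22.2% did. The median of the members stayed below 0 under each scaling tried, at -0.21 with quantile normalization and at -0.53 with each array centred on its median. Quantile normalization left 26 members lower (33.3%, against 18.7% of all genes) and 5 higher, where 2381 of the 10916 genes were higher. Centring each array moved the median of all genes from 0.04 to -0.10, and since it takes the same amount from every gene of an array, it leaves the members' distance from other genes as it was. It also turned the split of all calls, of which 41.9% were downward as scaled by the authors and 59.6% after centring. In bulk samples such as these, a smaller share of cells rich in a transcript and less of the transcript in each cell cannot be told apart.

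**Figure D1:**
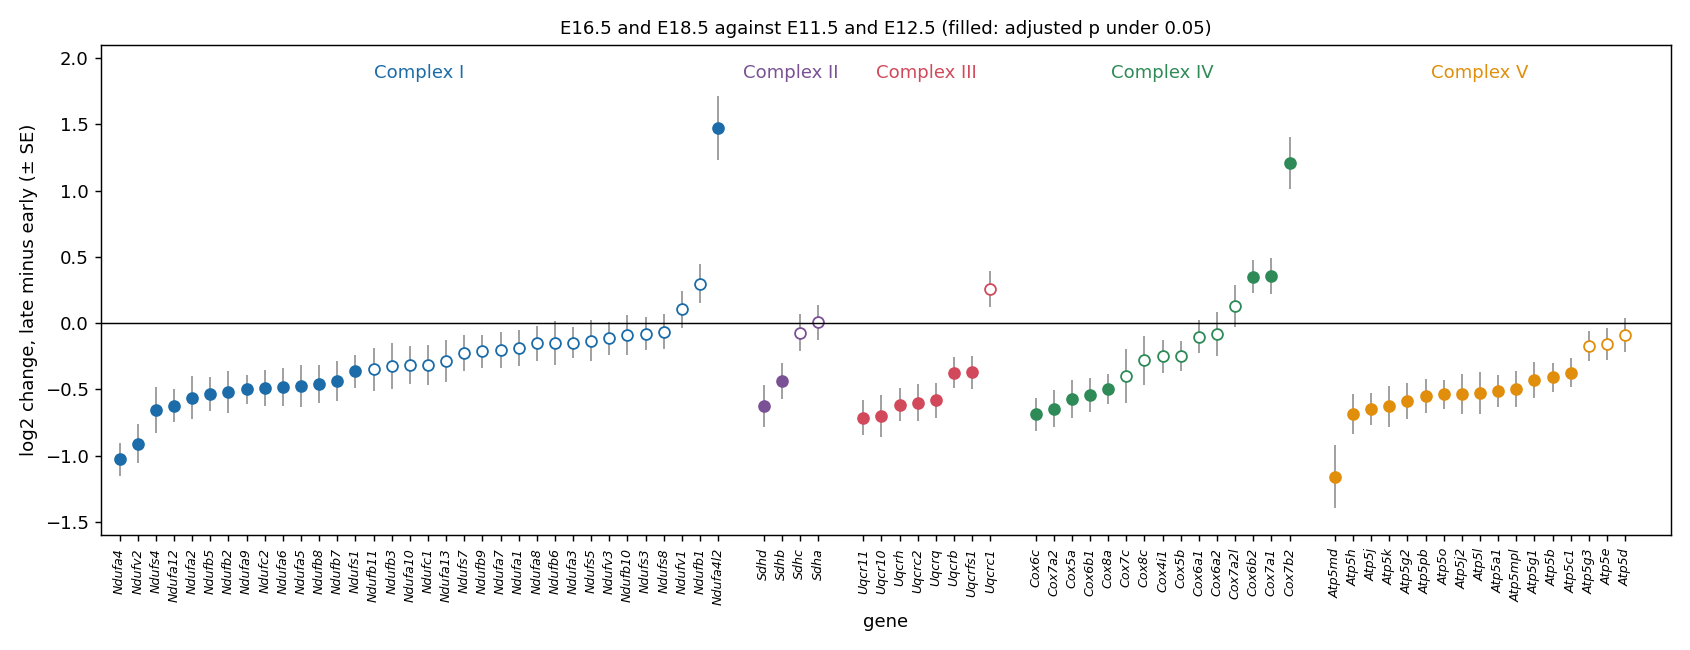
Log2 change of each tested member, E16.5 and E18.5 (4 arrays) minus E11.5 and E12.5 (4 arrays), with its standard error, by complex and in order of the change. Filled circles passed the test. Complexes III and V lie below 0 with 1 exception (Uqcrc1), and the genes that rose are Ndufa4l2, set by its name with complex I, and Cox6b2, Cox7a1 and Cox7b2 in complex IV.

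The subunit genes are among the brighter ones on the array, and brighter genes as a whole read lower in the late arrays. Of the members, 62 had a mean log2 signal between 9 and 12, where their median change was -0.44 and 37 fell. The 1895 other genes of that range had a median of -0.14, and 31.9% of them fell. From a mean of 9 up the members' median lay below that of other genes in each step of signal. Between 9 and 10 the medians were -0.32 for 15 members and -0.09 for other genes, between 10 and 11 they were -0.45 for 26 members and -0.21, and between 11 and 12 they were -0.51 for 21 members and -0.27. Above 12, 7 members had a median of -0.54 and 80 other genes one of -0.31, and 53.8% of those others fell. In the dimmer steps few members were found, and the 6 members between 6 and 7 lay higher, at a median of 0.33 against 0.13 for other genes, as did the 1 member between 7 and 8, at 0.35 against 0.10. The 2 members between 8 and 9 had a median of -0.21 against 0.03. With quantile normalization the 62 members between 9 and 12 had a median of -0.24, of which 24 fell, and the other genes of that range one of -0.01. The 99th percentile of signal was 2960 to 3439 on the early arrays, 2367 and 2836 at E14.5 and 2593 to 2642 on the late arrays, and its part in the result was not tested beyond these values.

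**Figure D2:**
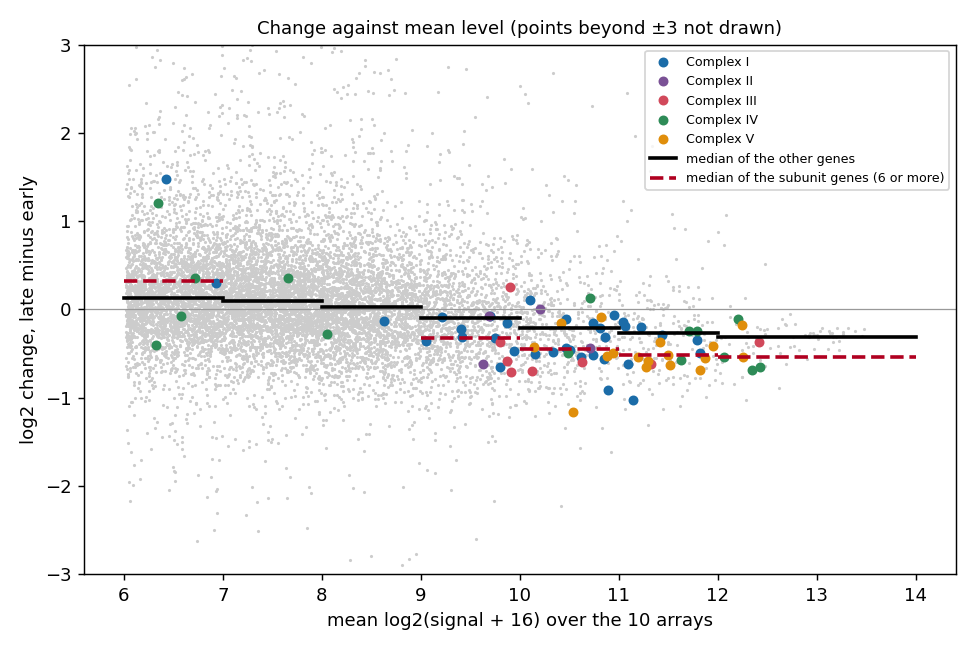
Log2 change, late minus early, against mean log2(signal + 16) over the 10 arrays, for the genes tested (grey) and the members by complex (coloured). Black bars are the medians of other genes in each step of signal and dashed red bars those of steps with 6 or more members, and above a mean of 9 each red bar lies below the black one, while between 6 and 7 it lies above.

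Scanning day shaped which comparisons could be read. The E14.5 arrays were read on one day, those of E12.5 and E16.5 on a later one, and those of E11.5 and E18.5 on the last, so E18.5 against E11.5 and E16.5 against E12.5 each lay within a day and shared no array. From E11.5 to E18.5, 10 members fell (12.8%) and 2 rose, with 11% and 17.1% of all genes doing so, and the members' median was -0.32. The share that fell was thus near that of all genes. Of genes of mean log2 9 to 12, 9 of 62 members and 19.0% of other genes fell, at medians of -0.38 and -0.14. From E12.5 to E16.5, 29 fell (37.2%) and 2 rose, with 10.2% and 16.8% of all genes doing so, at a median of -0.42. In the same range of signal 25 of 62 members and 20.5% of other genes fell, at medians of -0.50 and -0.15. Estimates lay below 0 in both comparisons for 63 of 78 members (80.8%) and for 35.2% of all genes. The 7 genes that fell in both were Ndufa4, Ndufa12, Ndufv2, Uqcr11, Cox6c, Atp5j and Atp5o, which made up 70.0% of the first list and 24.1% of the second, and Ndufa4l2 and Cox7b2 rose in both. That is 8.97% of the members lower in both, where 5.77% of all genes were, and over all genes those lower in both made up 52.3% of the first list and 56.5% of the second. For refits of these comparisons with an array left out, shares of all genes are not given here. The count of members lower from E11.5 to E18.5 rested on single arrays. It was 36 without E11.5 replicate 2. Leaving out the other E11.5 array or E18.5 replicate 2 gave 2, and leaving out E18.5 replicate 1 gave 3. The count from E12.5 to E16.5 was 3 without E16.5 replicate 2, 7 without E12.5 replicate 1, 18 without E12.5 replicate 2 and 19 without E16.5 replicate 1. For late against early, leaving out an array gave 28 to 48 genes lower.

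E11.5 replicate 2 stood apart from the other early arrays. Centred on each gene's mean, the median of the members was 0.36 and -0.07 on the E11.5 arrays, 0.29 and 0.22 on those of E12.5, -0.16 and 0.05 for E14.5, -0.13 and -0.24 for E16.5, and -0.17 and -0.20 for E18.5. The late arrays thus lay below all others but E14.5 replicate 1, which lay among them. The fluidics modules were 1 and 2 for E11.5 to E14.5 and 3 and 4 for E16.5 and E18.5. Module thus cannot be told apart from late against early, from either within-day comparison or from the step from E14.5 to E16.5. Actin probes at the 3' end over those at the 5' end, which track how intact the RNA is, gave ratios of 1.57 to 2.03 on the early and 1.87 to 2.62 on the late arrays, and those of Gapdh 0.774 to 0.808 on the early and 0.775 to 0.936 on the late arrays, with 3 of the 4 late ones above all early ones. Their part in the result was not tested.

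**Figure D3:**
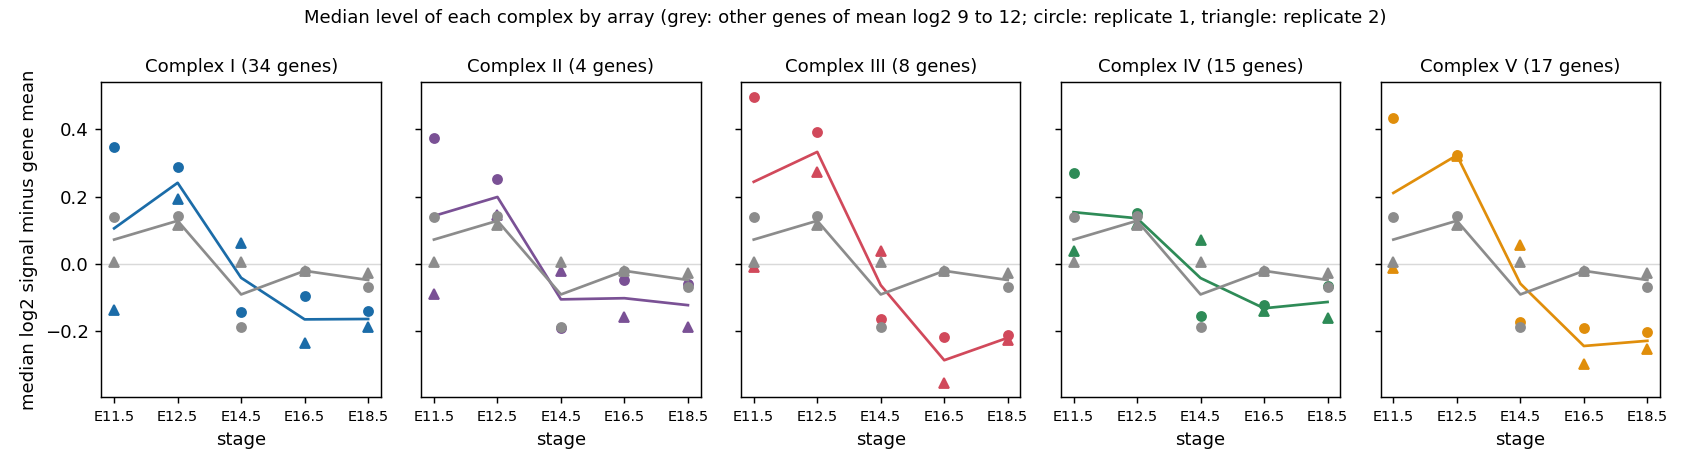
Median log2 signal of each complex on each array, centred on each gene's mean over the 10 arrays (circle, replicate 1; triangle, replicate 2; line, stage mean), with the 1895 other genes of mean log2 9 to 12 in grey. Complexes III and V show the widest gap between E12.5 and E16.5, and E11.5 replicate 2 lies below replicate 1 in each complex.

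Over the 5 stages 29 of 78 members changed by the moderated F test (37.2%), near the 34.7% of all genes. They were 6 of 34 in complex I, 0 of 4 in complex II, 5 of 8 in complex III, 8 of 15 in complex IV and 10 of 17 in complex V. The stage with the highest mean was E12.5 for 50 members, E11.5 for 18, E14.5 for 4, E16.5 for 2 and E18.5 for 4. The lowest mean was at E16.5 for 32, at E18.5 for 21, at E14.5 for 19, at E11.5 for 4 and at E12.5 for 2. Without a filter on low signal the F test called 14 members, and with quantile normalization 14. The count also moved when an array was left out. Shares of all genes for the F test under these alternatives are not given here.

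The steps between neighbouring stages gave few calls, and each was scanned on different days on its 2 sides, so that step and day cannot be told apart. From E11.5 to E12.5 no member passed (limma, with 2 at an unadjusted p under 0.05), where 1.95% of all genes rose and 1.32% fell, and the median was 0.11. From E12.5 to E14.5 Cox7a1 and Cox7b2 rose and Cox5a fell (3.53% and 1.73% of all genes), at a median of -0.31 that lay near the -0.23 of other genes of mean log2 9 to 12. From E14.5 to E16.5 Ndufa4 and Ndufv2 fell and none rose (3.12% and 7.70% of all genes), at a median of -0.14 against 0.07 for those other genes. From E16.5 to E18.5 no member passed (limma, with 1 at an unadjusted p under 0.05), where 0.00916% of all genes rose and as many fell, and the median was 0.00.

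Promoter sequence bears on genes that move together, and RefSeq (GRCm38.p6) held a promoter of 300 bases, 250 before and 50 after the start, for 66 of the 81 members. Short motifs of factors known to act on respiratory genes were searched on both strands. GCATGCGC, the core of the site of nuclear respiratory factor NRF1, stood in 9 of 66 members (13.6%), in 2.71% of the 32841 promoters of the table and in 6.46% of the tested genes. AAGATGGC, a YY1 site, stood in 9 (13.6%, against 2.75% of promoters and 5.45% of tested genes). CCGGAAGT, an ETS site, stood in 5 (7.58%, against 3.89% and 9.32%), CCAAT in 28 (42.4%, against 37.4% and 43.3%) and TCAAGGTCA, a site of oestrogen-related receptors, in 2 (3.03%, against 0.423% of promoters). Among the 34 members with a promoter that fell, 6 held the NRF1 core (17.6%) and 6 the YY1 site. Among the other 32 members 3 held each (9.38%). The ETS site stood in 4 that fell (11.8%) and 1 other (3.13%). CCAAT stood in 15 that fell (44.1%) and 13 others (40.6%), and the receptor site in 1 (2.94%) and 1 (3.13%). A longer form of the NRF1 site, also searched, stood in 2 that fell (5.88%) and 2 others (6.25%). These differences were not tested. A match is a description of letters and no evidence of binding.

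Promoters are shown for Uqcr11, the complex III gene with the largest fall, for Atp5j, which had the smallest adjusted p in complex V, and for Cox7b2, which rose. They were chosen after their values were seen. Uqcr11 lies at chr10:80406772-80407071, Atp5j at chr16:84834927-84835226 and Cox7b2 at chr5:71548156-71548455, each on the minus strand. Capitals mark the ETS site and the NRF1 core in Uqcr11, the YY1 site in Atp5j, and in Cox7b2 3 copies of ATTGG, the reverse complement of CCAAT.
Uqcr11: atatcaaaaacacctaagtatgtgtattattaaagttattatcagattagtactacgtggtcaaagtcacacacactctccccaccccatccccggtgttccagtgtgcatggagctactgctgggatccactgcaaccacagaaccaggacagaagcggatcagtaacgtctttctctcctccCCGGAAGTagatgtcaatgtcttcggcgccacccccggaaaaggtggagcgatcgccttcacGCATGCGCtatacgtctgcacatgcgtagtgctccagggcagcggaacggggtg
Atp5j: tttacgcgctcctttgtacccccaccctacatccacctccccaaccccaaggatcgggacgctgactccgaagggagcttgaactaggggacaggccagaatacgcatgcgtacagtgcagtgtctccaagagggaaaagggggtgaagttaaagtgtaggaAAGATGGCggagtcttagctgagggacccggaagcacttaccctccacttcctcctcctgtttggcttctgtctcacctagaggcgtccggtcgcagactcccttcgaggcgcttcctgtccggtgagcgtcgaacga
Cox7b2: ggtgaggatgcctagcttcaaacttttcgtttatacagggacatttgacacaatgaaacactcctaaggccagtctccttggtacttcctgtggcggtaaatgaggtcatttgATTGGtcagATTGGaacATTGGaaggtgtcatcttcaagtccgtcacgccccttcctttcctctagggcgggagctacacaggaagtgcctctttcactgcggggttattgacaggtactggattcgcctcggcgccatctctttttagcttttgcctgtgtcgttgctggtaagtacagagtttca

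In complex I, which takes electrons from NADH, 14 of 34 tested members fell, 1 rose and 19 did not pass, at a median log2 change of -0.32. All 4 late arrays lay below the early ones in 8 of the 34, where 16.4% of all genes showed the same. Of the 6 core subunits, those shared with the bacterial enzyme, 2 fell, and of 26 accessory subunits 11 fell and none rose, with medians of -0.15 and -0.32. Ndufa4 and Ndufa4l2 are set here by name, and without that pair, which held the 1 gene that rose, 13 of 32 fell.

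Ndufv2, an iron-sulfur core subunit of the NADH-oxidising arm, read 2859 and 1742 on the E11.5 arrays, 3065 and 2633 on those of E12.5, 2102 and 2038 for E14.5, 1306 and 1199.6 for E16.5, and 1506 and 1336 for E18.5. Each late array lay below each early and E14.5 array, with E18.5 slightly above E16.5. The log2 change was -0.91, SE 0.15, 1.88-fold lower, adjusted p 0.000237. Its partner in that arm, Ndufv1, which binds NADH and the flavin, read 1306 and 934 on the E11.5 arrays, 1118 and 1016 on those of E12.5, 779 and 1073 for E14.5, 1246 and 1387 for E16.5, and 1007 and 1073 for E18.5. The stages overlapped, and the estimate of 0.11 did not pass (SE 0.14, adjusted p 0.574), turning to -0.03 with centring and to -0.01 without E11.5 replicate 2. Ndufs1, the largest core iron-sulfur subunit, read 599.5 and 577 on the E11.5 arrays, 651 and 470.1 on those of E12.5, 594 and 554 for E14.5, 480.0 and 452 for E16.5, and 420.2 and 411 for E18.5. Early and late arrays overlapped through E12.5 replicate 2, and the fall was small (a log2 change of -0.36, SE 0.12, 1.29-fold lower, adjusted p 0.0302), a call lost in 6 of 10 fits with an array left out. The other core subunits, Ndufs3, Ndufs7 and Ndufs8, changed by -0.08, -0.23 and -0.06, which did not pass.

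Among the accessory subunits, which surround the core, Ndufa12 read 3185 and 2403 on the E11.5 arrays, 2761 and 2870.4 on those of E12.5, 1872 and 1931 for E14.5, 1899 and 1608 for E16.5, and 1953 and 1798 for E18.5. E14.5 already lay at the level of the late arrays, and each late array was below each early one (a log2 change of -0.62, SE 0.12, 1.54-fold lower, adjusted p 0.0011). Ndufs4, whose loss in mice and humans causes a Leigh-like brain disease, read 1363 and 761 on the E11.5 arrays, 1316 and 961 on those of E12.5, 995 and 942 for E14.5, 719 and 589 for E16.5, and 767 and 633 for E18.5. E11.5 replicate 2 lay within the range of the late arrays, and the log2 change was -0.66, SE 0.17, 1.58-fold lower, adjusted p 0.00774. The other 9 accessory genes that fell were Ndufa2, Ndufa5, Ndufa6, Ndufa9, Ndufb2, Ndufb5, Ndufb7, Ndufb8 and Ndufc2, with log2 changes from -0.44 (Ndufb7) to -0.56 (Ndufa2). Estimates of the 15 that did not pass ran from -0.35 for Ndufb11 to 0.30 for Ndufb1, the latter with signals of 78.6 to 142 only.

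Ndufa4 gave the smallest adjusted p of all members. It was first counted as a complex I subunit and is now known to sit in complex IV. It read 3199.6 and 2680.1 on the E11.5 arrays, 3146 and 3698 on those of E12.5, 2126 and 2729 for E14.5, 1459.7 and 1519 for E16.5, and 1656 and 1542 for E18.5. The late arrays lay below all others and E14.5 reached into the early range, with a log2 change of -1.03, SE 0.12, 2.04-fold lower, adjusted p 1.86e-05. It fell from E14.5 to E16.5 too, by 0.69 on the log2 scale (SE 0.17, adjusted p 0.0237). Its paralogue Ndufa4l2, a target of the hypoxia-inducible factors, went the other way. It read 54.9 and 42.7 on the E11.5 arrays, 16.7 and 36.8 on those of E12.5, 112 and 38.3 for E14.5, 102 and 116 for E16.5, and 167 and 134 for E18.5. Each late array lay above each early one, while the E14.5 arrays stood apart from each other at 112 and 38.3. Its early signals lay near background, around the filter's cut at a signal of 49.1, and it passed that filter through later arrays. The log2 change was 1.47, SE 0.24, 2.78-fold higher, adjusted p 0.000286. Both passed in opposite directions in each within-day comparison as well, with log2 changes for Ndufa4 and Ndufa4l2 of -0.87 and 1.36 from E11.5 to E18.5 and of -1.19 and 1.59 from E12.5 to E16.5.

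Complex II, succinate dehydrogenase, is also an enzyme of the citric acid cycle. Of its 4 subunits 2 fell and 2 did not pass (median -0.25). Sdhd, one of the membrane anchors, read 1111 and 776 on the E11.5 arrays, 1211 and 844 on those of E12.5, 815 and 726 for E14.5, 659 and 504 for E16.5, and 746 and 612 for E18.5. Early and late arrays did not overlap (a log2 change of -0.62, SE 0.16, 1.54-fold lower, adjusted p 0.00625). Sdhb, the iron-sulfur subunit, read 2244 and 1464 on the E11.5 arrays, 2271 and 1935 on those of E12.5, 1571 and 1649 for E14.5, 1527 and 1402 for E16.5, and 1389 and 1432 for E18.5. E11.5 replicate 2 lay among the late arrays, and the fall (a log2 change of -0.44, SE 0.14, 1.35-fold lower, adjusted p 0.0201) was lost with quantile normalization and in 4 of 10 fits with an array left out. Sdha, the flavoprotein that oxidises succinate, read 1457 and 1061 on the E11.5 arrays, 1211 and 1089 on those of E12.5, 941 and 1137 for E14.5, 1185 and 1251 for E16.5, and 1114 and 1261 for E18.5. Early and late arrays overlapped throughout, and the estimate was 0.01 (SE 0.13, adjusted p 0.971). Sdhc, the other anchor, changed by -0.07 (SE 0.14, adjusted p 0.713), with 779 to 911 on the early and 719 to 888 on the late arrays. The signs of Sdha and Sdhc turned under some alternatives and stand for no direction.

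In complex III, which oxidises coenzyme Q, 7 of 8 members fell and none rose, at a median of -0.59. In 6 of the 8 the late arrays all lay below the early ones, as in 16.4% of all genes. Uqcr11, a small subunit whose promoter is printed, read 1387 and 994 on the E11.5 arrays, 1285 and 1195 on those of E12.5, 917 and 1048 for E14.5, 818 and 661 for E16.5, and 679 and 776 for E18.5. E14.5 lay above the late arrays and reached into the early range, and the log2 change was -0.71, SE 0.14, 1.64-fold lower, adjusted p 0.000876. Uqcr10, another small subunit, read 1745 and 1103 on the E11.5 arrays, 1800.3 and 1219.7 on those of E12.5, 986 and 1062 for E14.5, 853 and 839 for E16.5, and 848 and 969 for E18.5. Replicates stood well apart at E11.5 and E12.5, and each late array was still below each early one (a log2 change of -0.70, SE 0.16, 1.63-fold lower, adjusted p 0.00297). Uqcrh, the hinge protein that helps cytochrome c dock, and Uqcrq fell by 0.61 and 0.58 on the log2 scale (adjusted p 0.00127 and 0.00335). Uqcrq lost its call when its probe sets were averaged and when probe sets of the less specific kinds were dropped.

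The core proteins of complex III did not move alike. Uqcrc2 read 2292 and 1502 on the E11.5 arrays, 2064 and 2185 on those of E12.5, 1391 and 1441 for E14.5, 1291 and 1117 for E16.5, and 1536 and 1308 for E18.5. E11.5 replicate 2 overlapped with E18.5 replicate 1, and the other early arrays lay above all late ones (a log2 change of -0.60, SE 0.14, 1.52-fold lower, adjusted p 0.00343). Uqcrc1 read 1023 and 791 on the E11.5 arrays, 919 and 862 on those of E12.5, 738 and 884 for E14.5, 1129.6 and 1408 for E16.5, and 816 and 1014 for E18.5. Its highest mean was at E16.5, its stages overlapped, and the estimate of 0.26 did not pass (SE 0.14, adjusted p 0.145), although with quantile normalization it was 0.38 and passed (adjusted p 0.0181). Whether these genes differ in their change was not tested. Uqcrfs1, the Rieske iron-sulfur protein, read 1254 and 944 on the E11.5 arrays, 1014 and 925 on those of E12.5, 730.1 and 854 for E14.5, 786 and 806 for E16.5, and 775 and 798 for E18.5. The late arrays lay within a narrow band below all early ones (a log2 change of -0.37, SE 0.12, 1.29-fold lower, adjusted p 0.027), a call lost in 6 of 10 fits with an array left out. Uqcrb fell by 0.37 on the log2 scale, with 5142 to 7096 on the early and 4669 to 5026 on the late arrays.

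In complex IV, cytochrome c oxidase, general and tissue forms of a subunit were counted apart. Of 15 tested members 5 fell, 3 rose and 7 did not pass. Of the 9 general forms, 5 fell, none rose and the median was -0.50. Of the 6 tissue or alternative forms, 3 rose (25.2% of all genes did), none fell and the median was 0.24. The calls of Cox6b2 and Cox7a1 among these 3 were lost with quantile normalization and with centring, and the difference between the forms was not tested. The general forms other than Cox7c had mean log2 signals of 10.48 to 12.42, and the tissue or alternative forms other than Cox7a2l of 6.35 to 8.05. Other genes had median changes of -0.27 between 11 and 12 and of 0.13 between 6 and 7. Form and level of signal were thus not separated here. With centring the complex median moved from -0.25 to -0.39. Without these 6 forms and Ndufa4l2, 71 members remained, of which 42 fell, at a median of -0.44. The genes set aside held every member that rose, so that none rose among the rest follows from the choice.

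Among the general forms, Cox6c read 7580.5 and 5632 on the E11.5 arrays, 6719 and 6405 on those of E12.5, 5182 and 5507 for E14.5, 4356 and 3584 for E16.5, and 4527 and 3845 for E18.5. The late arrays lay below all others, and the log2 change was -0.69, SE 0.13, 1.61-fold lower, adjusted p 0.000642. Cox7a2 read 7925 and 5051 on the E11.5 arrays, 7657 and 6876 on those of E12.5, 5327 and 6239.5 for E14.5, 4404 and 3966 for E16.5, and 4657 and 4292 for E18.5. E11.5 replicate 2 was the lowest early array and still above each late one (a log2 change of -0.65, SE 0.14, 1.57-fold lower, adjusted p 0.00211). Cox5a, a subunit on the matrix side, read 4596 and 3469.9 on the E11.5 arrays, 4645 and 4023 on those of E12.5, 1842 and 2834 for E14.5, 2858 and 2943 for E16.5, and 2577 and 2792 for E18.5. Its lowest mean was at E14.5, through replicate 1 of that stage. It fell from E12.5 to E14.5 by 0.91 on the log2 scale (adjusted p 0.0219), a step across scanning days, and late against early by 0.57 (adjusted p 0.00609). Cox6b1 and Cox8a fell by 0.54 and 0.50 on the log2 scale (adjusted p 0.00339 and 0.00322), and all late arrays lay below the early ones in both. The call of Cox6b1 was lost with quantile normalization.

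The general forms that did not pass were Cox4i1, Cox5b, Cox6a1 and Cox7c. Cox4i1, the subunit through which ATP regulates the enzyme, had signals of 3026 to 3966 on the early and 2989 to 3190 on the late arrays (log2 -0.25, SE 0.12, adjusted p 0.119). With centring its estimate was -0.39 and passed (limma, adjusted p 0.0221), and with quantile normalization it was 0.0572 and did not. Cox6a1 had 4288 to 6026 and 4653 to 4834 (log2 -0.10, SE 0.13, adjusted p 0.536), and with quantile normalization it was higher in the late arrays by 0.28 and passed (adjusted p 0.0172). Cox5b and Cox7c had log2 changes of -0.25 and -0.40 (adjusted p 0.101 and 0.127), the latter from signals of 40.6 to 90.5. The probe sets of Cox5b and Cox6a1 disagreed in sign, as did those of Cox8c, Ndufs8, Atp5c1 and Atp5d. The probe sets that read higher late were dim for Cox5b, Cox8c and Atp5c1, with mean log2 values of 6.05, 6.19 and 6.61. For Cox6a1 and Atp5d they changed by only 0.011 and 0.004, while Ndufs8 had bright probe sets of either sign. Of 42 members with several probe sets above the filter, 33 had all of them lower in the late arrays, 3 all of them higher and these 6 a mix.

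Cox7b2, a form typical of testis, was the complex IV gene that rose most. It read 19.6 and 31.6 on the E11.5 arrays, 46.1 and 32.9 on those of E12.5, 96.9 and 132 for E14.5, 121 and 73.8 for E16.5, and 111 and 78.3 for E18.5. The early arrays read at most 46.1, and E14.5 and the late arrays at least 73.8. The early signals thus lay near background, below the filter's cut of 49.1, and the gene passed that filter through the later arrays. The log2 change late against early was 1.21, SE 0.19, 2.31-fold higher, adjusted p 0.00023. From E12.5 to E14.5 it rose by a log2 of 1.23 (adjusted p 0.021), a step across scanning days, and E11.5 to E18.5 and E12.5 to E16.5 gave 1.41 and 1.01 (adjusted p 0.00172 and 0.0154). Its general counterpart Cox7b was not analysed here. The summed signal of 6 germ cell markers was 1304 to 3047 on the early, 4639.9 and 5484 on the E14.5 and 2948 to 4416 on the late arrays, and of these markers 3 rose and 3 fell late against early. Their part in the rise of Cox7b2 was not tested.

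Cox6b2, a testis form of Cox6b1, read 182 and 204 on the E11.5 arrays, 146 and 158 on those of E12.5, 138 and 172 for E14.5, 176 and 223 for E16.5, and 250.4 and 248 for E18.5. E16.5 replicate 2 and both E18.5 arrays lay above all early ones. The rise, with a log2 change of 0.35, SE 0.12, 1.28-fold higher, adjusted p 0.0356, was lost in 9 of 20 alternatives, among them 6 of 10 fits with an array left out. Cox8c, the third testis form, read 198 and 362 on the E11.5 arrays, 272 and 302 on those of E12.5, 199.9 and 306 for E14.5, 237 and 222 for E16.5, and 264 and 185 for E18.5. Its stages overlapped and the change did not pass (log2 -0.28, SE 0.19, adjusted p 0.245). The forms of testis thus included 2 that rose and 1 that did not pass.

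Both muscle forms that were tested had their highest mean at E14.5, while Cox8b, the form near background, read 6.7 and 7.5 there. Cox7a1, found in heart and skeletal muscle and brown fat, read 63.6 and 69.7 on the E11.5 arrays, 64.5 and 78.2 on those of E12.5, 129 and 149.6 for E14.5, 114 and 98.5 for E16.5, and 74.1 and 87.0 for E18.5. Both E14.5 arrays lay above every other array. It rose from E12.5 to E14.5 by a log2 of 0.83 (adjusted p 0.0249). Late against early it rose by 0.35 (SE 0.14, adjusted p 0.0496), a call lost in 13 of 19 alternatives. Cox6a2, of heart and skeletal muscle, read 46.5 and 81.9 on the E11.5 arrays, 90.7 and 86.5 on those of E12.5, 102 and 130.5 for E14.5, 70.5 and 68.0 for E16.5, and 79.0 and 61.8 for E18.5. Here too the E14.5 arrays were the highest, but no comparison passed. The summed signal of 7 skeletal muscle markers was 829 and 835 at E14.5 against 236 to 409 on the early and 270.3 to 341 on the late arrays, and 2 of the markers stayed below the filter's signal on every array. That of 4 cardiac markers was 449 to 852, 443 and 458, and 206 to 256. Of the 2 cardiac markers tested late against early, 1 rose and 1 fell. Their part in the muscle forms was not tested.

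Cox7a2l, a relative of Cox7a2 that joins complexes III and IV into supercomplexes, had 1256 to 2100 on the early and 1652.9 to 1905 on the late arrays (log2 0.13, SE 0.16, adjusted p 0.53). With centring the estimate was -0.01, and with quantile normalization 0.34, which passed (adjusted p 0.0468).

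**Figure D4:**
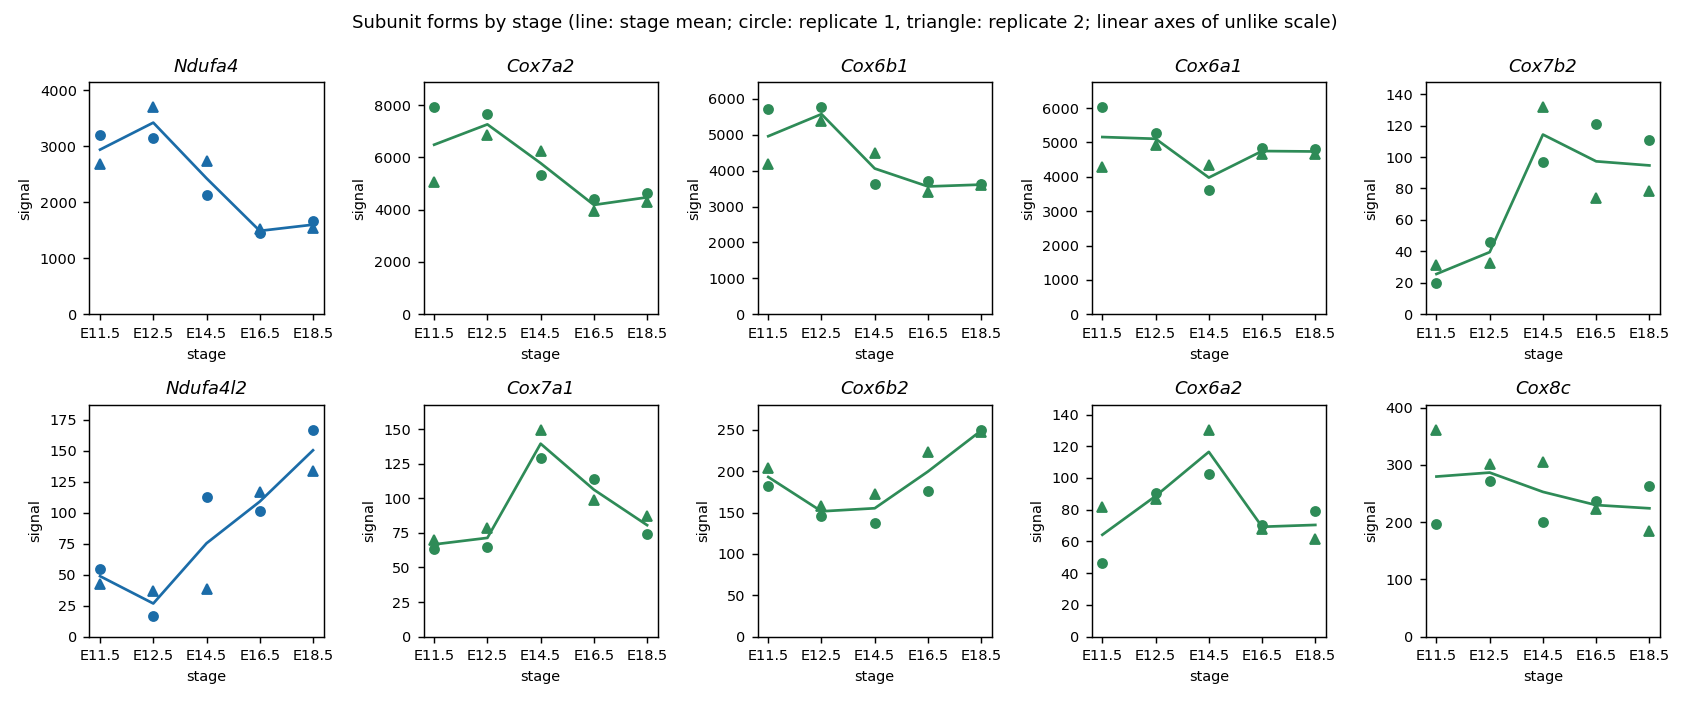
Signal by stage of general forms (Ndufa4, Cox7a2, Cox6b1, Cox6a1) and of tissue or alternative forms (Cox7b2, Ndufa4l2, Cox7a1, Cox6b2, Cox6a2, Cox8c) on linear axes from 0, with 1 point an array and a line through the stage means. Ndufa4 and Ndufa4l2 run in opposite directions, Cox7b2 is higher from E14.5 on, and Cox7a1 and Cox6a2 peak at E14.5. The early signals of Ndufa4l2 and Cox7b2 lie near background. Scales differ between panels, and levels of different genes are not comparable.

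In complex V, the ATP synthase, 14 of 17 members fell, none rose and all 17 estimates lay below 0, at a median of -0.53. All 4 late arrays lay below the early ones in 10 of the 17, where 16.4% of all genes showed the same. Of the peripheral stalk, which holds the catalytic head still, 4 of 4 fell with no overlap between early and late arrays (median -0.60). Of the small membrane subunits 5 of 5 fell (median -0.54, 1 of them without overlap). Of the F1 part, the catalytic head with its central stalk, 3 of 5 fell (median -0.37), and of the rotating c ring 2 of 3 (median -0.43).

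Of the peripheral stalk, Atp5h read 5288 and 3732 on the E11.5 arrays, 4359 and 5199 on those of E12.5, 2919.5 and 4016 for E14.5, 3045 and 2357 for E16.5, and 3234 and 2885 for E18.5. The late arrays lay below the early ones, and E14.5 spanned both (a log2 change of -0.68, SE 0.15, 1.6-fold lower, adjusted p 0.00247). Atp5j, coupling factor 6, whose promoter is printed, read 3378 and 2817 on the E11.5 arrays, 3175 and 3219 on those of E12.5, 2081 and 2468 for E14.5, 2151 and 1664 for E16.5, and 2112 and 2109 for E18.5. The early arrays kept within a narrow range and the late ones below it (a log2 change of -0.65, SE 0.12, 1.57-fold lower, adjusted p 0.000872). Atp5o, the protein that confers oligomycin sensitivity, read 2836 and 2716 on the E11.5 arrays, 2880.4 and 2906 on those of E12.5, 1973 and 2505 for E14.5, 1879 and 1886 for E16.5, and 1992 and 2038 for E18.5. The spread within each group was small beside the gap between them (a log2 change of -0.54, SE 0.11, 1.45-fold lower, adjusted p 0.0017). Atp5pb fell by 0.55 on the log2 scale (adjusted p 0.00364).

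Among the small membrane subunits, which shape the dimer of the enzyme, Atp5md gave the largest fall of all members. It read 2519.7 and 1121 on the E11.5 arrays, 3816 and 2062 on those of E12.5, 1709.6 and 1412 for E14.5, 957 and 731 for E16.5, and 1009 and 1229 for E18.5. The early arrays ran from 1121 to 3816, and E11.5 replicate 2 lay below E18.5 replicate 2. The log2 change was -1.16, SE 0.24, 2.23-fold lower, adjusted p 0.00139. Atp5k read 4199.8 and 2582 on the E11.5 arrays, 4215 and 3686 on those of E12.5, 2989 and 2979 for E14.5, 2794 and 2038 for E16.5, and 2200.5 and 2338 for E18.5. E11.5 replicate 2 again lay below a late array, E16.5 replicate 1 (a log2 change of -0.63, SE 0.15, 1.54-fold lower, adjusted p 0.00493). Atp5j2, Atp5l and Atp5mpl fell by 0.54, 0.53 and 0.50 on the log2 scale.

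In the F1 part 3 of 5 fell. Atp5a1, the alpha subunit, read 4310.3 and 3333 on the E11.5 arrays, 3372 and 3147 on those of E12.5, 2367 and 2834 for E14.5, 2588 and 2446 for E16.5, and 2364 and 2449.5 for E18.5. The early arrays lay above all others (a log2 change of -0.51, SE 0.12, 1.43-fold lower, adjusted p 0.00363). Atp5b, the beta subunit that makes ATP, read 4746 and 4873 on the E11.5 arrays, 4388 and 4556 on those of E12.5, 3243 and 4195 for E14.5, 3603 and 3493 for E16.5, and 3421 and 3436 for E18.5. E14.5 replicate 2 lay between early and late arrays, and the fall (a log2 change of -0.41, SE 0.11, 1.33-fold lower, adjusted p 0.0095) was lost with quantile normalization, where the estimate was -0.04. Atp5c1 fell by 0.37 on the log2 scale, while Atp5d and Atp5e, with -0.09 and -0.16, did not pass.

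Several genes encode the same c subunit, and they did not all pass. Atp5g2 read 3609 and 2308 on the E11.5 arrays, 3316 and 2904 on those of E12.5, 2853 and 2708 for E14.5, 1971 and 1891 for E16.5, and 2069 and 2024 for E18.5. The late arrays lay close together below the early ones, with a log2 change of -0.59, SE 0.14, 1.5-fold lower, adjusted p 0.00358. The mean of its probe sets ended that call. Atp5g1 read 1359.9 and 974 on the E11.5 arrays, 1526 and 1331 on those of E12.5, 1083 and 1215 for E14.5, 1167 and 948 for E16.5, and 816 and 893 for E18.5. E11.5 replicate 2 lay within the late range, and the fall (a log2 change of -0.43, SE 0.13, 1.35-fold lower, adjusted p 0.0201) was lost in 4 of 10 fits with an array left out. Atp5g3 read 5637 and 5176 on the E11.5 arrays, 5153 and 5246 on those of E12.5, 3764 and 4795 for E14.5, 4905 and 4726 for E16.5, and 4264 and 4961 for E18.5. The groups did not overlap but differed little, and the change did not pass (log2 -0.17, SE 0.11, adjusted p 0.25). With quantile normalization its estimate was 0.21, and with centring it was -0.31 and passed (limma, adjusted p 0.0395). The difference between these genes was not tested.

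Other lists of mitochondrial genes were read in the same fit, late against early, where 18.2% of all genes fell and 25.2% rose. Of 10 subunits and electron carriers outside the rule on names, 6 fell and none rose (median -0.37). They included Cyc1, cytochrome c1 of complex III, which went from 1688 ± 294 to 1174 ± 23.3 (mean ± SD, n = 4 arrays each), and Atpif1, the inhibitor of the ATP synthase, from 3229 ± 613 to 1783 ± 141. Cyct, the cytochrome c of testis, went from 209.5 ± 74.1 to 112.5 ± 32.7, which was 1.74-fold lower (adjusted p 0.00125). Only ND5 of the 13 subunits encoded in mitochondrial DNA had a probe set with its own symbol, and it did not pass (3726 to 8080 early, 2468 to 6958 late, adjusted p 0.187). Of 40 assembly factors 17 fell and none rose (median -0.25), with Ndufaf4, which helps to build complex I, at 1.93-fold lower and Pet100, of complex IV, at 1.83-fold lower.

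The machinery that makes and imports mitochondrial proteins also read lower. Of 76 mitochondrial ribosomal proteins 38 fell and 1 rose (median -0.36), and Mrpl12 was 2.16-fold lower, at 834 ± 174 early and 373 ± 28.8 late (adjusted p 5.26e-05). Of 24 import genes 13 fell and 2 rose (median -0.42), and Timm8a1, a chaperone of the space between the membranes, went from 1213 ± 513 to 378 ± 28.9 (2.92-fold lower). Of 18 regulators of mitochondrial biogenesis 4 fell and 2 rose (median -0.14). Tfam, which packs and transcribes mitochondrial DNA, was 1.75-fold lower at 649.8 ± 79.6 early and 362 ± 26.5 late (adjusted p 0.000141). Polg2, a subunit of the polymerase that copies it, rose from 123 ± 10.9 to 184 ± 11.6.

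Among carriers of the inner membrane and partners 5 of 8 fell and 1 rose (median -0.38). The ADP/ATP carriers Slc25a4 and Slc25a5 went from 3926 ± 291 to 2301 ± 89.1 and from 3026 ± 214 to 1718 ± 105. Slc25a31, the carrier of germ cells, rose from 111.5 ± 65.5 to 667 ± 174 (5.81-fold, adjusted p 1.2e-08), with 56.0 to 185.5 on the early and 474 to 895 on the late arrays. Of 8 mitochondrial antioxidant enzymes 3 fell and Sod2 rose (median -0.18), while Gpx4, which protects membranes from peroxides, was 1.58-fold lower.

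The pathways that feed the chain showed other counts. Of 17 citric acid cycle genes 4 fell (Cs, Idh2, Dld and Fh1) and 1 rose (median -0.18). Of 14 fatty acid oxidation genes 2 fell and 3 rose (median -0.01). Acadm, the medium-chain acyl-CoA dehydrogenase, went from 537 ± 42.0 to 852 ± 79.6 (1.57-fold, adjusted p 0.000753), and Cpt1a, which admits fatty acids to mitochondria, from 307 ± 82.0 to 468 ± 37.3. Of 10 coenzyme Q synthesis genes Coq3 fell and Coq8a rose (median 0.01). Of 13 glycolysis genes 4 fell and 2 rose (median -0.09), with Ldhb, a lactate dehydrogenase subunit, at 3.06-fold lower and Aldoc, an aldolase, at 3.39-fold higher. The share of genes that fell was thus above that of all genes for the subunits and most other lists. It lay near that of all genes for the citric acid cycle (4 of 17) and the biogenesis regulators (4 of 18). Fatty acid oxidation, coenzyme Q synthesis and the lone mitochondrial transcript lay below it. The lists were not matched for signal, and of other genes of mean log2 9 to 12, 31.9% fell. These shares are a description, and differences between lists were not tested.

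**Figure D5:**
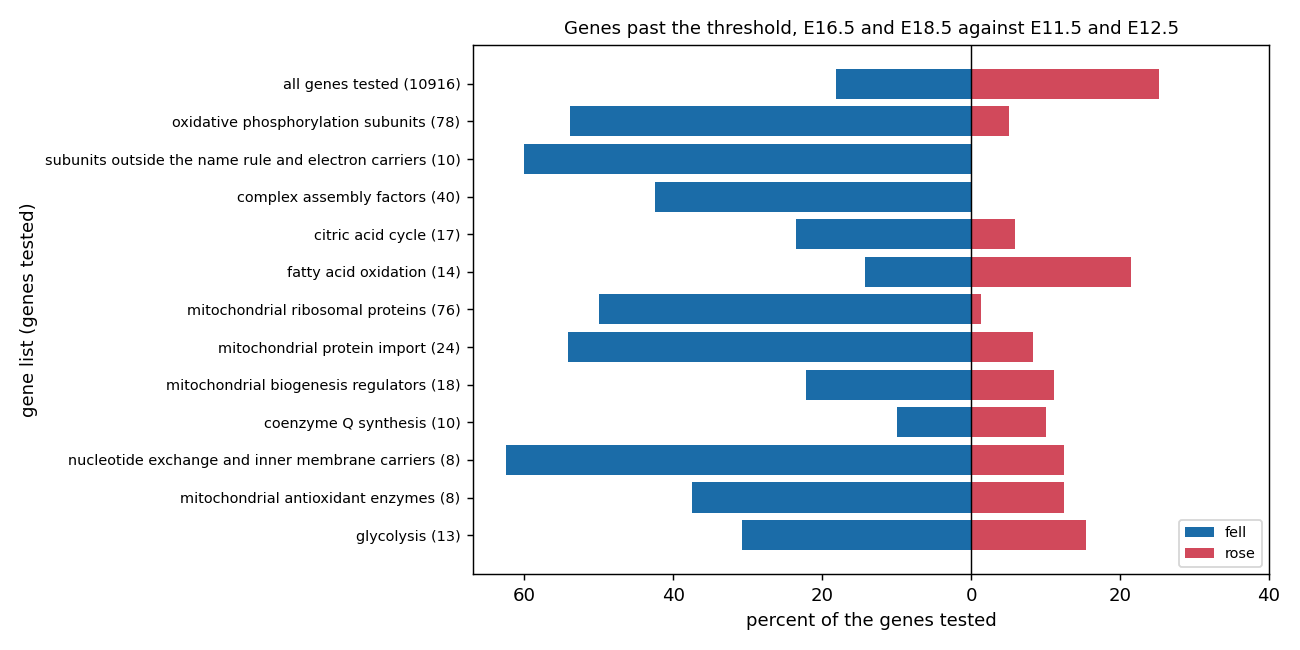
Percent of the tested genes of each list that fell (blue, left) or rose (red, right), late against early, with the number tested in brackets. The subunit genes stand at 53.8% fallen against 18.2% of all genes, and fatty acid oxidation is the list with the highest share risen other than all genes.

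The cell makeup of the samples changed over the same stages. The tissue label held, with markers of Sertoli cells, fetal Leydig cells and germ cells on the late arrays. The summed signal of 8 Sertoli markers was 1607 to 7549 on the early and 10499.9 to 14176 on the late arrays (6 rose and 1 fell), and that of 5 fetal Leydig markers 529 to 923 and 10179 to 14095 (5 rose). That of 5 erythroid markers, embryonic globins foremost, was 20438 to 27544 and 229 to 906 (3 of 4 tested fell and 1 rose), and Hba-a1 read 2.3 to 22.3 throughout. That of 5 smooth and peritubular muscle markers was 812 to 2130 and 6062 to 7083 (4 of 4 tested rose). Endothelial markers summed to 389 to 665 and 516 to 839 (2 of 4 rose), macrophage markers to 343 to 582 and 459 to 605 (1 of 3 rose), and mesonephric and kidney tubule markers to 104 to 217 and 109 to 129 (none of 1 tested passed). Brown fat markers summed to 15.5 to 50.4 and 71.2 to 122.5, with Ucp1 at 1.9 to 16.9. The part of these shifts in the subunit genes was not tested.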

How the data were processed

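Stages and replicate numbers of the 10 arrays, 2 for each of 5 stages, were taken from the labels. The authors deposited a signal intensity per probe set on a linear scale. Per the labels' protocols, RNA was extracted with Trizol and labelled in a single cycle. Per these labels the software behind the values is not stated. The deposited file holds 45101 probe sets, and with 2% of values trimmed at each end the mean intensity is 125 on each array. Arrays give no read counts, and precision rests on how many there are. Chip type, scanning day and fluidics module came from the scanner settings.

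Of the probe sets, 34958 had 1 gene symbol, 932 several and 9211 none, per the platform annotation. Symbols were brought up to date with the RefSeq genes of assembly GRCm38.p6, by Entrez number for 34754 and by accession for 1, while 203 stayed as the platform gives them. A probe set of several symbols was given to none of them. Each of 18193 genes was read from its probe set with the highest mean of log2(signal + 16). Genes below the 40th percentile of that mean (6.02, or a signal of 49.1) were dropped, and 10916 were tested. The members had 164 probe sets, and in 18 tested members the chosen one ended in _x_at or _s_at, kinds that can detect related transcripts.

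A linear model of stage was fitted to the 10 arrays with limma 3.58.1 in R 4.3.3 (lmFit, then eBayes with a trend, with 5 residual and 8.59 prior degrees of freedom). Tests were two-sided, adjusted by Benjamini-Hochberg over 10916 genes, with a threshold of 0.05. Contrasts set E16.5 and E18.5 against E11.5 and E12.5, each stage against its forerunner, and each late stage against the early one scanned on the same day. A fold comes from log2(signal + 16) and so understates changes of dim genes. Levels of different probe sets were not compared. The procedure was tested on simulated data with normal noise. Late against early, it recovered 41 of 100 genes changed by a log2 of 0.5 and 96 of 100 changed by 1. From E11.5 to E12.5 it recovered 4 and 66 of 100. A gene that did not pass may thus still have changed, above all in a single step. Alternatives were pseudocounts of 1 and 64, no filter and a filter at the 60th percentile, the mean of all probe sets, no _x_at or _s_at probe sets, quantile normalization, centring on array medians, a replicate block, a fit to the compared stages alone and each array left out.

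Members were named with values by a rule: the 4 of each complex with the smallest F test p, the 20 with the largest late against early change among those past the threshold, a set of catalytic and central subunits, and all members of groups of isoforms. Up to 4 genes with the smallest p were eligible from each companion list. Other members named in counts or ranges were chosen after their values were seen. The members, lists and tests were chosen with earlier results of these data known, so no count stands as independent support.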

Additional observations from a re-analysis of the deposited data

How the results depend on the processing

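The counts of members late against early (42 lower, 4 higher) kept their size under most alternatives, and their medians stayed below 0 in each complex under all of them. Late against early, 33.3% of members and 18.7% of all genes fell with quantile normalization, and 66.7% and 27.6% with centring. For the F test and the other comparisons, shares of all genes under the alternatives are not given here. Quantile normalization gave 26 lower late against early, 14 changed over the stages (29 in the main analysis), 0 higher from E12.5 to E14.5, 1 higher and 7 lower from E14.5 to E16.5 (0 and 2), 4 lower from E11.5 to E18.5 (10), and 4 higher and 15 lower from E12.5 to E16.5 (2 and 29). It gave medians of -0.14, -0.10, -0.37, -0.17 and -0.25 for complexes I to V, and turned Atp5g3 to 0.21, Cox4i1 to 0.0572, Cox6a1 to 0.28 and Sdhc to 0.0309. Centring on array medians gave 2 higher late against early, 25 lower from E11.5 to E18.5 and medians of -0.39 for complexes II and IV, and turned Cox7a2l to -0.0103, Ndufv1 to -0.0345 and Sdha to -0.13. Without a filter 14 members changed over the stages, 2 were higher late against early, 0 were higher and 0 lower from E12.5 to E14.5, 1 lower from E14.5 to E16.5 and 5 lower from E11.5 to E18.5. The filter at the 60th percentile, which leaves out dim forms, gave 1 higher late against early and 0 higher in E14.5 against E12.5, in E18.5 against E11.5 and in E16.5 against E12.5. The mean of probe sets gave 1 lower from E14.5 to E16.5 and a complex IV median of -0.16, and 1 was higher in that step with a pseudocount of 64, without _x_at and _s_at probe sets and with the stages compared alone, which also gave 6 lower from E11.5 to E18.5. A replicate block gave 43 lower late against early, 2 lower from E12.5 to E14.5, 1 higher and 4 lower from E14.5 to E16.5 and 21 lower from E11.5 to E18.5 (10). Same-numbered arrays of different stages deviated together with correlations of 0.00444 to 0.366 over 10 pairs of stages, 6 of them over 0.1 and 4 not, so the numbers were not taken to pair the arrays. In each stage replicate 1 ran on module 1 or 3 and replicate 2 on module 2 or 4, so the block also holds that split. Scanning day as a random block was not run, since each stage lies within a day.

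Leaving out each array in turn gave 11 to 43 members changed over the stages, 28 to 48 lower and 2 to 4 higher late against early, 0 to 2 higher and 0 to 5 lower from E12.5 to E14.5, 0 to 1 higher and 0 to 4 lower from E14.5 to E16.5, 1 to 2 higher and 2 to 36 lower from E11.5 to E18.5, and 1 to 3 higher and 3 to 37 lower from E12.5 to E16.5. Medians ran from -0.44 to -0.15 for complex I, -0.35 to -0.16 for II, -0.72 to -0.45 for III, -0.30 to -0.22 for IV and -0.61 to -0.42 for V. A lone array was assumed to vary like the others. Signs turned within the range of some genes that did not pass. These ranges were -0.105 to 0.12 for Sdha, -0.145 to 0.00399 for Sdhc, -0.225 to 0.0196 for Cox6a1, -0.241 to 0.0825 for Cox6a2, -0.0541 to 0.313 for Cox7a2l and -0.0139 to 0.224 for Ndufv1, with the turned end reached without E11.5 replicate 1 for Cox6a1, E18.5 replicate 2 for Sdhc and E11.5 replicate 2 for the others. Of the 31 named members past the threshold, 21 stayed past it under every alternative that held them and 10 did not. Among the 21, Cox7b2, Ndufa4l2 and Ndufa12 were held by 19 of 20 alternatives. Named members were chosen in part for small p or large change, so these counts do not describe all members past the threshold. The cause of these shifts was not tested, and with 2 arrays a stage small changes lie within the error.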

Other observations

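Probe sets shared by several genes were left out of the counts, and some of them are bright. The brightest that bears the name of Ndufb4, together with its copies Ndufb4b and Ndufb4c, read 3245 and 1816 on the E11.5 arrays, 3443 and 2875 on those of E12.5, 2217 and 2251 for E14.5, 1650.4 and 1447 for E16.5, and 2046 and 1664 for E18.5. Its late arrays overlapped with E11.5 replicate 2 only. A probe set of Ndufs6 and Ndufs6b read 1084 to 1375 on the early and 929 to 1046 on the late arrays, which did not overlap, and one of Ndufa11 and Ndufa11b read 1349 to 1469 and 1053 to 1418, which did. In all 9 such probe sets bear a member's name, and none was tested.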
